A study of Ailuropoda melanoleuca with 25 samples.

Results

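The spleen and the lung of the same 5 giant pandas (Ailuropoda melanoleuca) were compared by messenger RNA sequencing, with 1 library per tissue and panda. These 10 libraries of the series' 25 were chosen by tissue, and they were paired by the number of the panda. The series also holds heart, liver, and kidney of the same animals. Panda 1 was a female of 27 years that died of ovarian cancer, and panda 2 was a female of 9 years whose cause of death the labels give as "ileac pssion". Pandas 3 and 4 were females and panda 5 a male, each of 0.5 years, and all 3 died of a coronavirus infection. All 5 animals were captive and were sampled shortly after natural death, and none was treated. The older and the young pandas also differ in the cause and year of their death. The deposited table gives FPKM, the reads on a gene scaled by its length and by the depth of its library, for 25376 genes. Gene names came from the study's supplementary list of differentially expressed genes, which names 1778 of these genes, and 1302 of them had a mean above 1 FPKM in the spleen or in the lung and were tested.

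The spleen filters blood. Its white pulp holds follicles of B cells and sheaths of T cells around small arteries, and its red pulp holds macrophages that clear old red cells and recycle their iron. The lung exchanges gas across alveoli lined by flat type 1 cells and by type 2 cells, which secrete surfactant, a film of lipid and protein that lowers surface tension. Its airways are lined by ciliated and secretory cells. Both organs hold much blood and many leukocytes.

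The FPKM values were scaled to between 13149580 and 17390350 reads per library in these 10 libraries, a depth recovered from the steps of the values. Markers of both organs matched the labels. In the spleen, CD79B and MS4A1 (CD20) of B cells, CD3E of T cells, SPIC and CD5L of macrophages, and the homeobox genes TLX1 and NKX2-3 had means between 62.7 (TLX1) and 1324 (CD5L) FPKM. In the lung, SFTPB, SFTPC, and SFTPD of surfactant, ABCA3, AGER, CLDN18, NKX2-1, and SCGB3A1 had means between 75.0 (ABCA3) and 23861 (SFTPC) FPKM. Means are given as ± SD over the 5 libraries of a tissue (n = 5), and log2 differences as ± SE. A few libraries stood apart. Spleen 4 held traces of lung transcripts, and for the 12 named genes with the largest difference toward the lung its FPKM was between 0.442% and 1.22% (median 0.622%) of that in lung 4. The medians of this share in the other 4 pandas lay between 0.00112% and 0.0695%, and spleen 4 was the highest spleen library for 11 of these 12 genes. Lung 4 was the lowest lung library for 41 of 42 ciliated cell genes and lung 3 the highest for 39 of 42. Lung 3 was also the highest lung library for 16 of 18 B cell genes. Spleens 1 and 5 were the 2 highest spleen libraries for 22 of 28 T cell genes. The cause of these deviations was not tested, and beside the results that they touch most, values without panda 3, panda 4, or pandas 1 and 5 together are given. The shortest genes, those in the lowest quartile of length, deviated from the tissue mean by a median between -0.21 and 0.20 on the log2 scale over the 10 libraries.

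**Figure D1:**
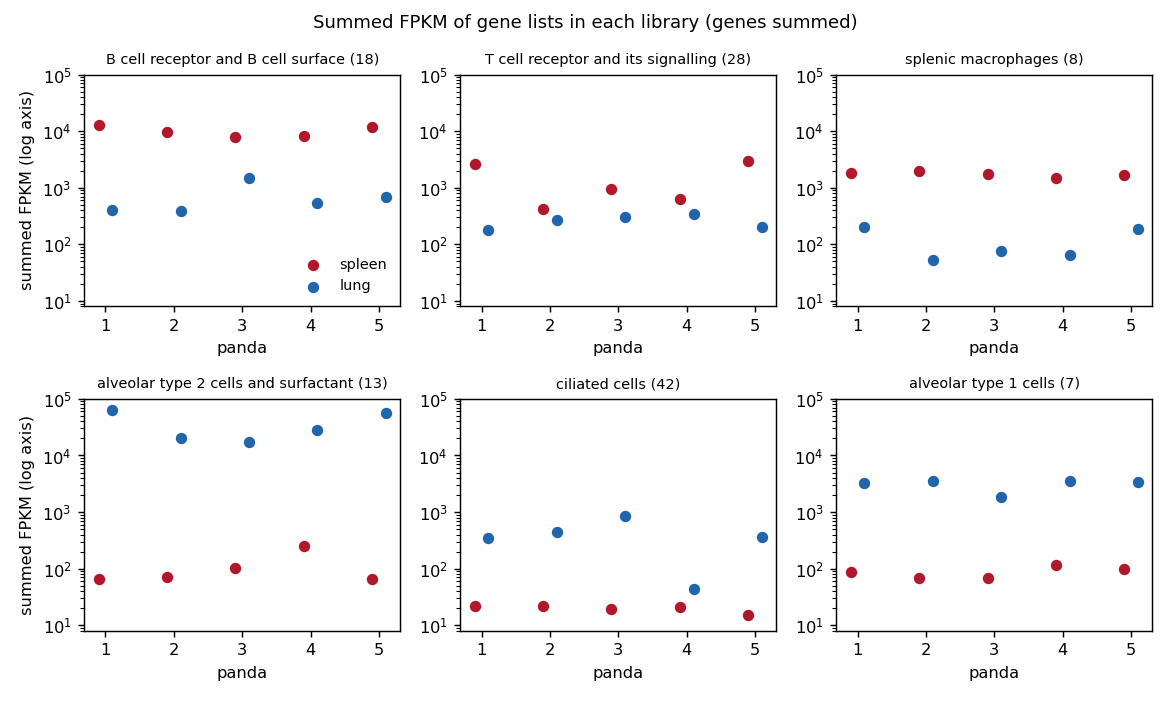
Summed FPKM (log axis) of 6 gene lists in the spleen (red) and lung (blue) library of each of the 5 pandas, with the number of genes summed in parentheses. The spleen exceeded the lung in all 5 pandas for the 3 upper lists and the reverse held for the 3 lower ones, with the narrowest gap for T cell genes in panda 2 (423 against 267 FPKM) and for ciliated cell genes in panda 4 (21.0 against 44.3 FPKM). Single abundant genes weigh heavily in such sums. In spleen 1, CD5L alone held 1444 of the 1795 FPKM of the macrophage list.

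To find the genes that separated the 2 tissues, log2(FPKM + 1) was fitted with limma with the panda as a block. To be called, a gene needed a log2 difference (spleen minus lung) beyond 2 in either direction together with a p below 0.05 after Benjamini-Hochberg adjustment. Of the 1302 named genes tested, 435 (33.4%) were called, 196 higher in the spleen and 239 higher in the lung. Among all 16908 genes tested 1175 (6.95%) were called, 490 (2.90%) and 685 (4.05%) in these directions, and 740 of them carried no name. The study drew its list from these same libraries, since a listed gene differed between one tissue and each of the other 4 in either direction, so the higher share among named genes is not independent evidence. The 730 tested genes that the list holds only under heart, liver, or kidney were not picked for the spleen or lung, and 66 of these (9.04%) were called, 18 higher in the spleen and 48 in the lung. For 400 of the 435 called named genes the spleen and lung libraries did not overlap, and the same held for 1073 of all 1175 called genes. Among all genes tested, called or not, it held for 21.7%. The median log2 difference was 0.03 over all genes tested and -0.17 over the named ones. In the gene lists below, a member counts as measured only if the study's list names it and it passed the filter. The called share of a gene list therefore also rests on the study's choice and is not independent evidence about a cell type. It was not compared with the called share of all genes that the study listed for the spleen or lung.

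**Figure D2:**
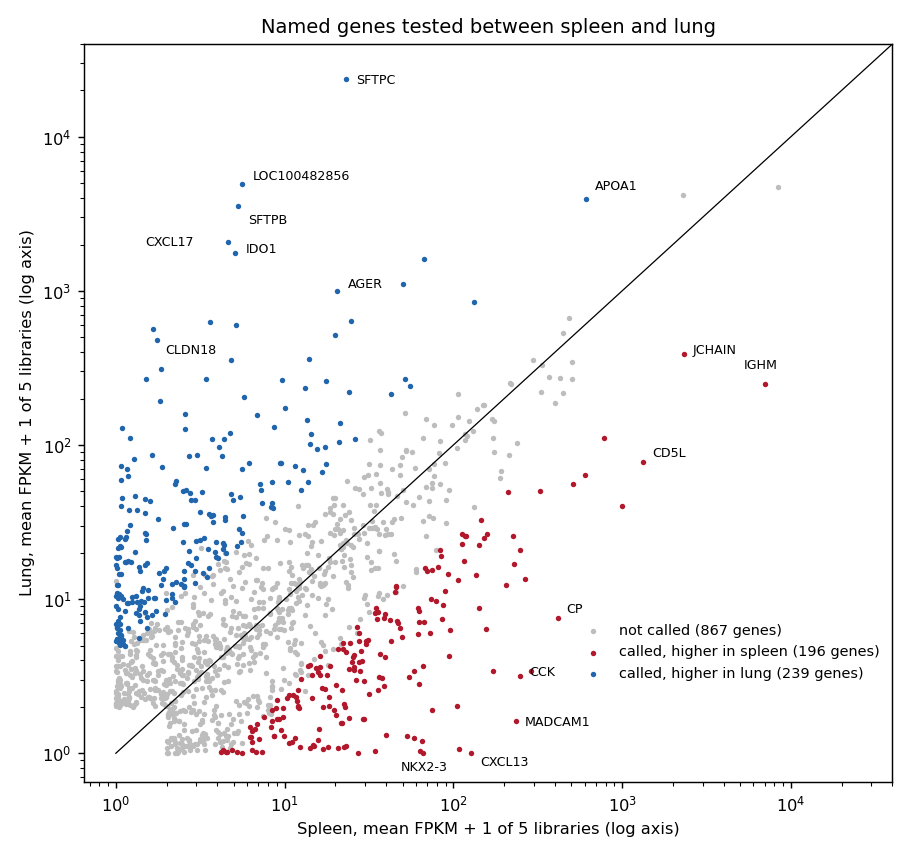
Mean FPKM + 1 of the 5 lung libraries against that of the 5 spleen libraries for the 1302 named genes tested, on log axes, with genes called higher in the spleen in red (196), higher in the lung in blue (239), and the rest in grey (867). Surfactant genes such as SFTPC lie highest above the diagonal, and IGHM, CD5L, MADCAM1, and CXCL13 lie far below it.

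Across all 5 tissues, 177 of the 196 named genes called higher in the spleen had their highest mean in the spleen, 11 in the heart, 5 in the kidney, and 3 in the liver. Of the 239 called higher in the lung, 157 had their highest mean in the lung, 34 in the kidney, 33 in the liver, and 15 in the heart. Lungs 1 and 5 were the 2 highest lung libraries for 101 of these 239 genes, and spleens 1 and 5 the 2 highest spleen libraries for 96 of the 196, where 10 pairs of libraries are possible in each tissue.

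The largest difference toward the spleen was that of MADCAM1, the addressin on vessel walls that binds circulating lymphocytes. Its FPKM was 305, 321, 210.3, 159.8, and 173 in spleens 1 to 5 and 0.917, 0.532, 0.445, 0.479, and 0.720 in lungs 1 to 5, a log2 difference of 7.13 ± 0.18 with a limma adjusted p of 6.7e-07. CXCL13, the chemokine that draws B cells into follicles, followed with 124, 75.5, 128, 121, and 185 FPKM in the spleens and 0 in each lung. Against a floor of 3 reads per lung library its mean was at least 205-fold higher in the spleen. NKX2-3, a homeobox gene needed for spleen development, was also at 0 in each lung, with 131, 54.3, 41.5, 24.9, and 71.5 FPKM in the spleens, at least 208-fold higher. TLX1, a homeobox gene without which no spleen forms in mice, had 104, 79.9, 40.9, 35.2, and 53.3 FPKM in the spleens and 2 reads in all lungs together. For these 4 genes, identified in the table as ENSAMEG00000002668, ENSAMEG00000002513, ENSAMEG00000007277, and ENSAMEG00000017604, each spleen stood above each lung, and spleen 1 was the highest of the spleens for NKX2-3 and TLX1. Where a tissue is at 0 the fitted log2 difference depends on the pseudocount and is no bound.

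The orphan receptor NR5A1 (steroidogenic factor 1), a driver of steroid hormone genes that is also needed for the spleen's vessels, had 177, 88.3, 96.1, 48.1, and 128 FPKM in the spleens against at most 0.104 FPKM in a lung. CYP11A1, which makes the first cut in cholesterol on the way to steroid hormones and is a known NR5A1 target, had 68.1, 38.7, 71.0, 27.96, and 54.2 FPKM against at most 0.535. Spleen 4 was the lowest for both, spleens 1 and 5 the highest for NR5A1, and spleens 1 and 3 the highest for CYP11A1. CH25H, which makes 25-hydroxycholesterol, had 63.0, 242, 286, 200.9, and 57.3 FPKM in the spleens and 2.12, 4.02, 2.86, 1.60, and 1.56 in the lungs, so spleens 2 to 4 were higher than spleens 1 and 5. CCK, the gut and brain hormone cholecystokinin, was at 246 ± 102 FPKM in the spleen and 2.17 ± 0.638 FPKM in the lung, although its mean was higher still in the kidney (1572 FPKM). ENPEP, aminopeptidase A, which trims angiotensin II, was at 288 ± 143 FPKM and 2.40 ± 0.709 FPKM.

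CP (ceruloplasmin), the copper protein that oxidizes iron for export, was at 403, 378, 302, 473, and 515 FPKM in the spleens and 6.19, 4.57, 8.66, 2.23, and 10.9 in the lungs, a log2 difference of 5.90 ± 0.28 (adjusted p = 4.4e-06). The WNT antagonist DKK2 was even among the spleens, from 88.1 to 125 FPKM, against 0.489 to 1.47 in the lungs. LMAN1L, a lectin related to a cargo receptor of the secretory pathway, was at 64.2 ± 26.7 FPKM and 0.199 ± 0.108 FPKM. The 12 log2 differences ranged from 5.28 (CYP11A1) to 7.13 (MADCAM1), and the adjusted p-values from 6.7e-07 to 9.8e-06.

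The largest differences toward the lung were those of surfactant proteins. SFTPC (ENSAMEG00000003331), the hydrophobic surfactant protein C made by type 2 cells, had 40781, 11570.0, 12096, 16359, and 38499 FPKM in lungs 1 to 5 and 0, 6.07, 4.63, 99.3, and 0 in spleens 1 to 5. Its log2 difference was -11.93 ± 1.06 (adjusted p = 8.1e-05), and -13.07 without panda 4. SFTPB, the second hydrophobic surfactant protein, had 5807, 2413, 1428, 3025, and 5134 FPKM in the lungs and 0.130, 1.13, 0.526, 19.3, and 0.257 in the spleens, a difference of -10.31 ± 0.65 (adjusted p = 1.4e-05), and -11.09 without panda 4. LOC100482856, described as pulmonary surfactant-associated protein A, a collectin of airway defence, had 9907, 2141, 1515, 3512, and 7796 FPKM in the lungs and 0, 1.80, 0.340, 20.9, and 0 in the spleens. The lungs of pandas 1 and 5 were the 2 highest and spleen 4 the highest spleen for each of these 3 genes. SFTPD, the other surfactant collectin, was at 265 ± 112 FPKM in the lung and at most 2.35 FPKM in a spleen.

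Further alveolar genes followed. SLC34A2, the phosphate transporter of the type 2 cell surface, was at 566 ± 341 FPKM in the lung and 0.657 ± 1.20 FPKM in the spleen. SLC22A31, of the organic ion transporter family, was at 309.7 ± 112 FPKM and 0.864 ± 0.832 FPKM. NKX2-1, the homeobox factor of lung and thyroid development, had 157, 112, 68.8, 86.7, and 126 FPKM in the lungs and was listed at 0 in spleens 1, 2, 3, and 5, with 1.06 FPKM in spleen 4. CLDN18, a tight junction protein whose lung form seals the alveolar lining, had 399.7, 660.1, 122, 801, and 414 FPKM in the lungs and 0 in spleens 1, 3, and 5, so lung 3 was the lowest of the lungs for both of these.

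CXCL17, a chemokine of mucosal surfaces that is counted here with the type 2 cell genes, had 2459, 1806, 1428, 2441, and 2236 FPKM in the lungs and 0, 1.46, 0.619, 15.6, and 0.483 in the spleens. Outside the alveolar lists, IDO1, which starts the breakdown of tryptophan and limits T cells, had 713, 2395, 2018, 2401, and 1237 FPKM in the lungs and at most 13.3 in a spleen, a difference of -8.94 ± 0.36 (adjusted p = 2.3e-06). Unlike SFTPC, it was lowest in lungs 1 and 5. LOC100465091, described as cytochrome P450 2A13-like, an enzyme type of the respiratory tract, had 330.1, 765, 1339, 354, and 367 FPKM in the lungs with lung 3 the highest and at most 10.3 in a spleen. Reads of cytochrome P450 2A genes may fall on near-identical copies. METTL7A, a methyltransferase-like membrane protein, was at 601 ± 91.7 FPKM and 4.12 ± 1.26 FPKM.

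**Figure D3:**
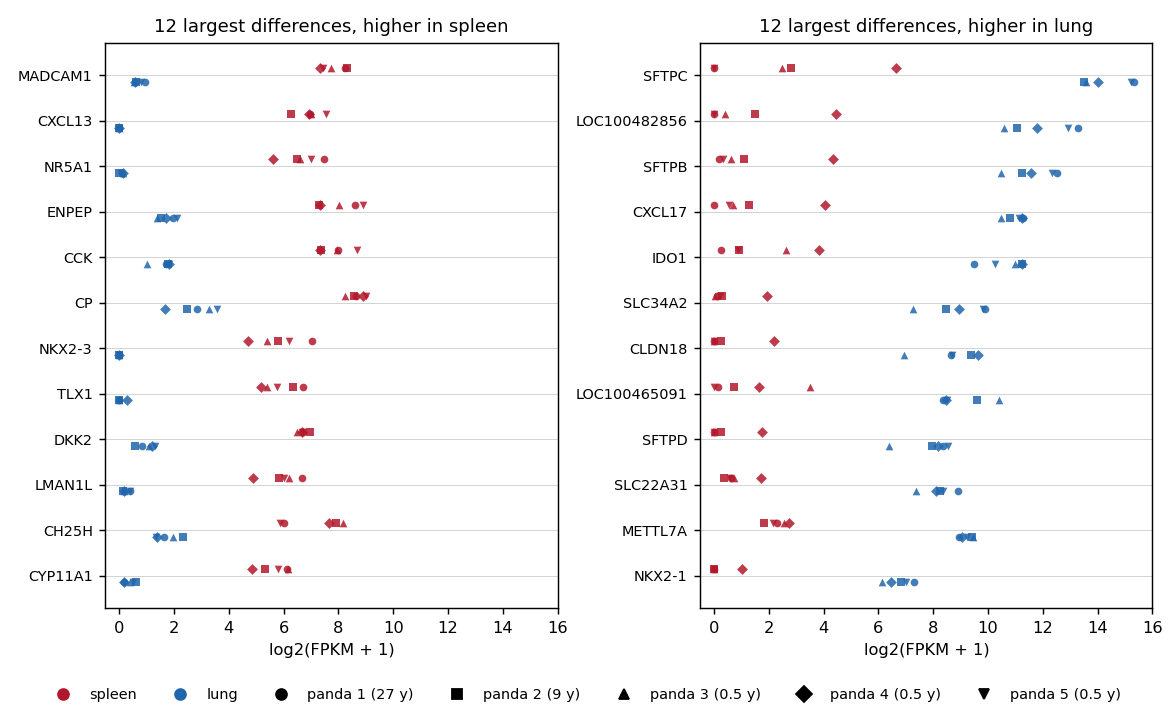
Values in each library, log2(FPKM + 1), of the 12 named genes with the largest log2 difference in each direction, with the spleen in red, the lung in blue, and a marker shape for each panda. Spleen and lung libraries did not overlap for any of these genes, and spleen 4 (diamond) lies to the right of the other spleens for 11 of the 12 lung genes.

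B cell genes were higher in the spleen. Of the 18 measured members of the list of the B cell receptor and B cell surface, 15 were called higher in the spleen and 0 in the lung, with a median log2 difference of 3.01. The study had listed all 18 for the spleen. In bulk tissue, fewer cells of a type and less RNA per cell cannot be told apart. IGHM (ENSAMEG00000004883), which encodes the constant region of IgM, was the most abundant, with 9547, 8176, 3989, 6568, and 6831 FPKM in the spleens and 158, 173, 479.5, 252, and 183 in the lungs, a difference of 4.89 ± 0.37 (adjusted p = 3.4e-05). CD79B, a signalling chain of the B cell receptor, had 113, 143, 215, 125, and 111 FPKM in the spleens and 3.65, 3.49, 23.4, 4.57, and 3.66 in the lungs. Its partner CD79A had 152, 90.5, 217, 84.8, and 133 and 5.85, 9.29, 32.4, 10.7, and 8.09 FPKM. In all 3 of these genes lung 3 was the highest lung, and in CD79A and CD79B spleen 3 was the highest spleen.

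CR2, the complement receptor on B cells and follicular dendritic cells, had 88.1, 37.4, 76.3, 43.7, and 64.5 FPKM in the spleens and 0.938, 0.694, 5.71, 0.583, and 1.15 in the lungs, and MS4A1 had 72.8, 17.97, 94.6, 28.8, and 111 and 0.966, 1.36, 7.73, 1.53, and 1.91. Without panda 3 the log2 difference was 4.68 for CD79B, 4.94 for CR2, and 5.35 for IGHM, against 4.37, 4.66, and 4.89 with all pandas. JCHAIN, which joins polymeric IgM and IgA, was called at 2.53 ± 0.29, but its tissues overlapped, since lung 3 (846 FPKM) exceeded spleen 2 (714 FPKM), and without pandas 1 and 5 it was not called (1.92). The 3 members that did not reach a log2 difference of 2 were the receptor FCRL5, the variable segment IGHV6-1, and the kinase BLK, at log2 differences between 1.65 and 1.72. Reads of immunoglobulin genes may fall on near-identical copies, so their values are uncertain.

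The 9 measured B cell transcription factors and germinal centre genes were all listed by the study for the spleen. Of these, 5 were called higher in the spleen and 0 in the lung, and all 9 showed no overlap between tissues. SPIB, an ETS factor of B cells, was at 53.6 ± 6.47 FPKM in the spleen and 2.11 ± 0.612 FPKM in the lung. PAX5, which fixes B cell identity, was at 30.5 ± 7.36 FPKM and 1.41 ± 1.32 FPKM, POU2AF1, a B cell coactivator, at 37.8 ± 15.0 FPKM and 6.56 ± 4.59 FPKM, and GCSAM, a germinal centre signalling gene, at 7.31 ± 4.04 FPKM and 0.473 ± 0.424 FPKM. With a pseudocount of 0.1, or with limma-voom on the recovered reads, all 9 were called. Without pandas 1 and 5, POU2AF1 (1.77) and GCSAM (1.83) lost their calls.

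T cell genes were mostly higher in the spleen, with a wide spread among the spleens. Of 28 measured members of the list, 17 were called higher in the spleen and 1 in the lung, with a median of 2.14, and limma-voom on recovered reads called 27 higher in the spleen. Without pandas 1 and 5, whose spleens were the 2 highest for most of these genes, 4 were called higher in the spleen and the median was 1.52. The study had listed 27 for the spleen. CD8A, the co-receptor of cytotoxic T cells, had the largest difference and was even among pandas, with 34.4, 43.8, 28.1, 40.9, and 37.0 FPKM in the spleens and 2.45, 1.98, 1.80, 1.27, and 2.82 in the lungs. CRTAM, an adhesion receptor of activated cytotoxic cells, was at 34.8 ± 23.3 FPKM and 1.56 ± 0.960 FPKM. The chains of the CD3 complex, which relay the signal of the T cell receptor, were uneven. CD3E had 513, 71.2, 128, 93.4, and 439 FPKM in the spleens and 13.1, 27.5, 21.2, 25.3, and 11.5 in the lungs, CD3D had 292, 44.0, 147, 105, and 544 and 13.4, 17.2, 38.0, 29.5, and 25.6, and CD3G had 362, 43.0, 125, 87.9, and 518 and 11.95, 13.4, 22.5, 15.4, and 16.7. Spleens 1 and 5 were the 2 highest for each chain and spleen 2 was the lowest, while the lungs stayed within a narrower range. The log2 difference of CD3E was 3.21 ± 0.58 with all pandas and 1.91 without pandas 1 and 5, that of CD3D 2.74 ± 0.48 and 1.67, and that of CD3G 3.23 ± 0.48 and 2.16, so CD3E and CD3D lost their calls. CD8A did not rest on these pandas, with 3.63 ± 0.18 and 3.83.

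TRDC, the constant part of the delta chain of gamma delta T cells, had 385, 21.7, 88.1, 49.1, and 474 FPKM in the spleens and 12.5, 6.95, 10.8, 10.01, and 16.3 in the lungs, with the same spleens at the top and bottom and a difference of 2.21 without pandas 1 and 5. CD7, a surface protein of T and NK cells, was the exception in direction, with 31.3, 13.2, 33.8, 15.6, and 31.9 FPKM in the spleens and 58.6, 141, 89.3, 195, and 59.0 in the lungs, a log2 difference of -2.004 ± 0.43 (adjusted p = 0.00725). It fell below the threshold of 2 without panda 2 (-1.67) or panda 4 (-1.61). Of 8 NK and cytotoxic genes, all listed by the study for the spleen, 3 were called, each higher in the spleen. They were KLRD1 (CD94), a receptor chain of NK cells, with 763, 90.9, 345, 188, and 1169.6 FPKM in the spleens and 26.4, 37.0, 113, 46.9, and 51.5 in the lungs, its genomic neighbour KLRK1 (NKG2D) at 72.9 ± 43.9 FPKM and 9.05 ± 5.85 FPKM, and EOMES, a factor of cytotoxic cells, at 15.9 ± 16.5 FPKM and 1.01 ± 0.275 FPKM, whose log2 difference of 2.38 fell to 1.96 without panda 1. RUNX3, a factor of cytotoxic T and NK cells, stood just under the threshold at 1.997 and was not called. The number of called NK genes depended on the threshold, with 8 called at a pseudocount of 0.1 or with limma-voom, 5 after quantile normalization, and 5, 6, and 7 without panda 3, 2, and 4. Without pandas 1 and 5 none of the 8 was called, and KLRD1 stood at 1.62 and KLRK1 at 1.72.

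A list of chemokines, cytokines, and related genes had calls in both directions. Of its 16 measured members, the study had listed 13 for the spleen and 3 for the lung. Among the 16, 9 were called higher in the spleen and 3 in the lung, with a median of 2.28. The 4 not called were all higher in the spleen. Besides CXCL13 and MADCAM1, the spleen had more IL21R, the interleukin 21 receptor, with 25.7, 15.9, 13.4, 13.1, and 16.3 FPKM against 1.93, 1.91, 3.16, 2.35, and 1.71. The 3 higher in the lung were the chemokines CXCL17, CCL26 (an attractant of eosinophils), and CCL13 (an attractant of monocytes and eosinophils). CCL26 had 43.8, 2.76, 4.74, 5.71, and 70.2 FPKM in the lungs and at most 0.960 in a spleen. CCL13 had 91.0, 112, 8.66, 135, and 31.0 FPKM in the lungs and 4.22, 5.82, 11.8, 13.7, and 6.45 in the spleens, and in panda 3 the spleen exceeded the lung. Without pandas 1 and 5, CCL26 (-1.58) and CCL13 (-2.28, limma adjusted p = 0.0649) were not called.

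For 12 leukocyte G protein-coupled receptors, the study had listed 10 for the spleen and 2 for the lung. Of these 12, 7 were called higher in the spleen and 2 in the lung. Among the former, CCR6, a homing receptor of B and T cells, was at 10.97 ± 5.60 FPKM in the spleen and 0.988 ± 0.996 FPKM in the lung, GPR174, a receptor of lysophosphatidylserine, at 13.5 ± 9.73 FPKM and 1.27 ± 0.831 FPKM, and P2RY10, a lysophospholipid receptor of lymphocytes, at 24.3 ± 14.7 FPKM and 3.22 ± 2.11 FPKM. Without pandas 1 and 5 the counts of this list were 2 and 1, and GPR174 (1.64) and P2RY10 (1.95) lost their calls. FPR2, the formyl peptide receptor of neutrophils and macrophages, was higher in the lung but spread widely among the spleens, with 0.138, 8.94, 0.139, 27.8, and 0.163 FPKM there and 90.2, 25.5, 23.3, 37.8, and 107 in the lungs. Its tissues overlapped, and limma-voom gave an adjusted p of 0.0506, so the call was lost, as it was without pandas 1 and 5 (-2.09, limma adjusted p = 0.06). APLNR, the apelin receptor of vessel walls, had 40.7, 7.22, 6.89, 4.64, and 18.5 and 57.5, 96.9, 36.1, 107, and 31.3 FPKM, and its call was lost without panda 2 (-1.93) or panda 4 (-1.76).

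Measured genes of the splenic macrophage list were higher in the spleen. This list held 15 genes, of which 8 carried a name, and the study had listed all 8 for the spleen. Its other genes, among them CD163 and HMOX1, carried no name in the study's list, so their values could not be looked up. Of these 8, 7 were called higher in the spleen and 0 in the lung. The median of the 8 was 2.62, or 3.24 with PLA2G2D at its bound (4.25 at a pseudocount of 0.1 and 4.14 with limma-voom on the recovered reads). SPIC, the factor that red pulp macrophages need, had 86.7, 17.99, 93.6, 29.1, and 143 FPKM in the spleens and 0.829, 0.818, 0.489, 0.552, and 1.79 in the lungs. CD5L, a protein that macrophages secrete, had 1444, 1624, 1127, 1139, and 1287 and 142, 34.4, 23.9, 41.6, and 139 FPKM, so it was even among the spleens and higher in lungs 1 and 5 than in the other lungs. PLD4, a nuclease of phagocytes and dendritic cells, had 30.8, 8.04, 31.2, 8.06, and 25.6 and 2.91, 0.197, 2.49, 0.177, and 2.17 FPKM, with the same 3 pandas (1, 3, and 5) higher in both tissues. PLA2G2D, a secreted phospholipase of lymphoid macrophages and dendritic cells, had 4.20, 0.459, 11.8, 1.09, and 5.44 FPKM in the spleens and 0 in each lung, at least 10.9-fold higher. Its call at 2.07 was lost without panda 1, 3, or 5, and also without pandas 1 and 5 together (limma adjusted p = 0.0594). The member not called was NRROS, at 1.95.

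All 14 measured genes of spleen patterning and stroma were called higher in the spleen, with a median of 3.39 (4.90 at a pseudocount of 0.1 and 5.25 with limma-voom on the recovered reads), and for 13 of them the libraries did not overlap. The study had listed all 14 for the spleen. NR5A1, TLX1, NKX2-3, and DKK2 led this group. NKX3-2, a further homeobox gene of spleen development, differed by 4.49 and was at 0 in each lung. The stromal ligand WNT5A had 63.0, 32.9, 24.4, 22.1, and 49.5 FPKM in the spleens and 6.05, 2.55, 1.92, 2.08, and 3.33 in the lungs. HAND2, a transcription factor of mesoderm that stands outside the list and was picked after its values were seen, had 20.1, 36.6, 11.2, 25.8, and 13.3 FPKM in the spleens and 4 reads in all lungs together, although its mean was higher still in the heart (198 FPKM).

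**Figure D4:**
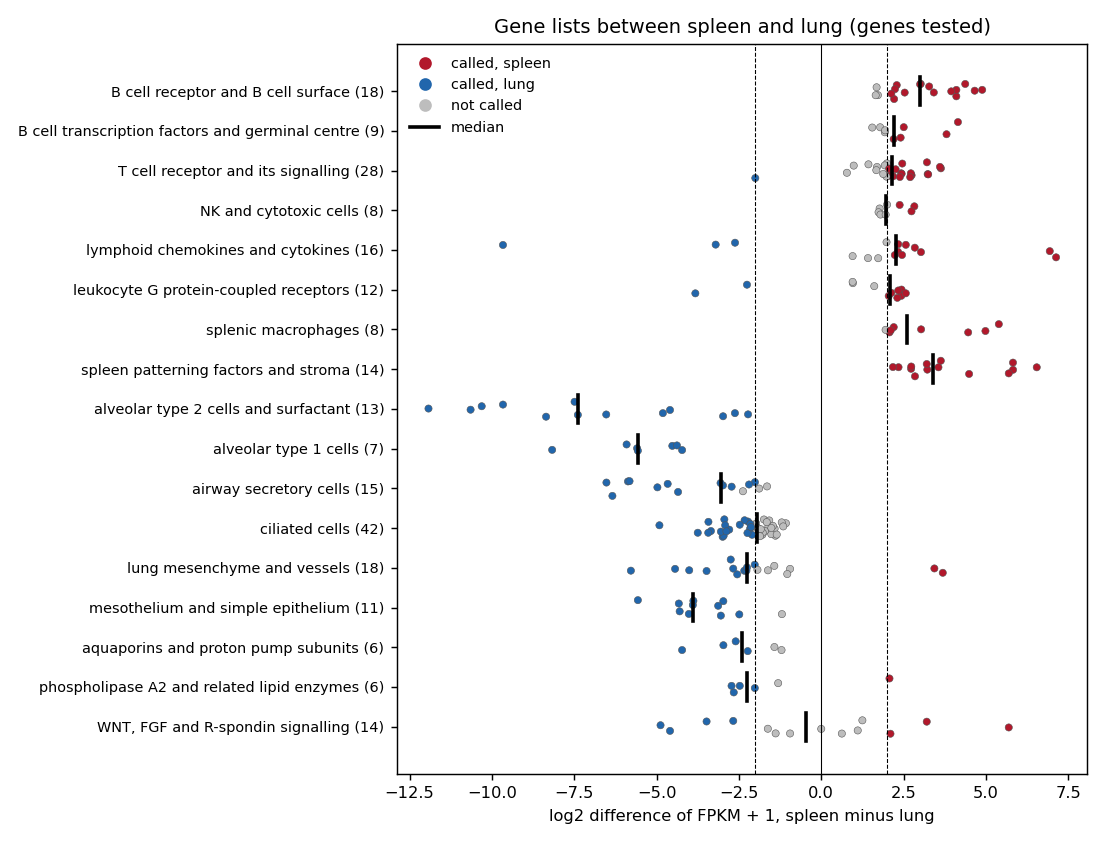
Log2 difference of FPKM + 1, spleen minus lung, of each measured member of 17 gene lists (number tested in parentheses), with genes called higher in the spleen in red, higher in the lung in blue, and not called in grey. Black bars mark medians, and dashed lines mark the threshold of 2. The medians of lymphoid and splenic lists lie to the right and those of lung epithelial lists to the left.

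In the lung, all 13 measured genes of alveolar type 2 cells and surfactant were called higher, with a median of -7.39, and all 7 of type 1 cells were called, with a median of -5.57. No library of one tissue overlapped the other for any of the 20. The study had listed all of them for the lung. ABCA3, the lipid pump of surfactant storage, differed less than the surfactant proteins, with 109.7, 90.2, 44.0, 68.2, and 63.1 FPKM in the lungs and 8.76, 13.2, 8.63, 6.80, and 5.30 in the spleens. Among type 1 cell genes, AGER, the receptor for glycation end products, had 1358, 771, 790.4, 925, and 1125 FPKM in the lungs and 20.1, 20.2, 22.7, 20.8, and 13.3 in the spleens. RTKN2, a signalling protein of type 1 cells, was at 80.6 ± 34.2 FPKM in the lung and 0.284 ± 0.233 FPKM in the spleen. KRT7, a keratin of simple epithelia, had 390.2, 223, 138, 230.4, and 339 and 0.726, 9.30, 1.88, 30.1, and 1.47 FPKM, with spleen 4 the highest spleen. LAMP3, a lysosomal protein of type 2 cells and of mature dendritic cells, was at 520.3 ± 141 FPKM in the lung and 18.9 ± 10.1 FPKM in the spleen, where none of the libraries was below 7.80 FPKM.

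Of 15 measured airway secretory genes, all listed by the study for the lung, 12 were called higher in the lung and 0 in the spleen. The median was -3.06 (-5.28 at a pseudocount of 0.1 and -6.69 with limma-voom on the recovered reads). CLIC3, a chloride channel protein, was at 265 ± 66.0 FPKM in the lung and 2.44 ± 1.36 FPKM in the spleen, and MUC15, a membrane mucin, at 71.6 ± 52.6 FPKM with 5 reads in all spleens together. SCGB3A1, a secretoglobin of airway secretory cells, had 123, 69.2, 167, 1.34, and 279.5 FPKM in the lungs, so lung 4 stood far below the others, and it had 2 reads in all spleens. Its difference was -5.87 ± 0.86 with all pandas and -7.03 without panda 4. UPK1B, a uroplakin, had 32.2, 2.72, 24.7, 2.01, and 41.2 FPKM in the lungs and 0.652, 1.80, 0.282, 6.94, and 1.25 in the spleens and was not called (adjusted p = 0.056). In panda 4 its spleen exceeded its lung, and without panda 4 it was called (-3.32, adjusted p = 0.00611). It was also called without the panda as a block (adjusted p = 0.0368), with all 25 libraries in the fit (adjusted p = 0.00418), and with limma-voom (adjusted p = 0.0254).

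Genes of motile cilia were numerous and low. Of 42 measured, 20 were called higher in the lung and 0 in the spleen, and the other 22 were higher in the lung without passing the threshold. The median was -1.95 (-3.28 at a pseudocount of 0.1 and -3.97 with limma-voom on the recovered reads), or -2.12 with the 4 genes at 0 in the spleen at their bound, and -2.45 without panda 4. The count was 42 at a pseudocount of 0.1 or with limma-voom, and 9 where a gene had to exceed 1 FPKM in all 5 libraries of a tissue. The study had listed 41 of them for the lung. FOXJ1, the master factor of motile cilia, had 61.4, 102, 107, 1.33, and 21.3 FPKM in the lungs and 0.170, 0.116, 0.0572, 0, and 0.0447 in the spleens. FAM183A, a cilia protein, had 15.2, 13.5, 56.0, 1.15, and 19.6 FPKM in the lungs, TMEM212 had 11.2, 9.37, 47.2, 0.321, and 21.1, and SNTN, at the tips of airway cilia, had 8.59, 12.8, 52.0, 0.313, and 14.6. SNTN was at 0 in each spleen, so its mean was at least 37.4-fold higher in the lung. In these 4 genes lung 4 was the lowest and lung 3 the highest, and the FOXJ1 difference was -4.92 ± 0.72 with all pandas and -5.84 without panda 4.

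**Figure D5:**
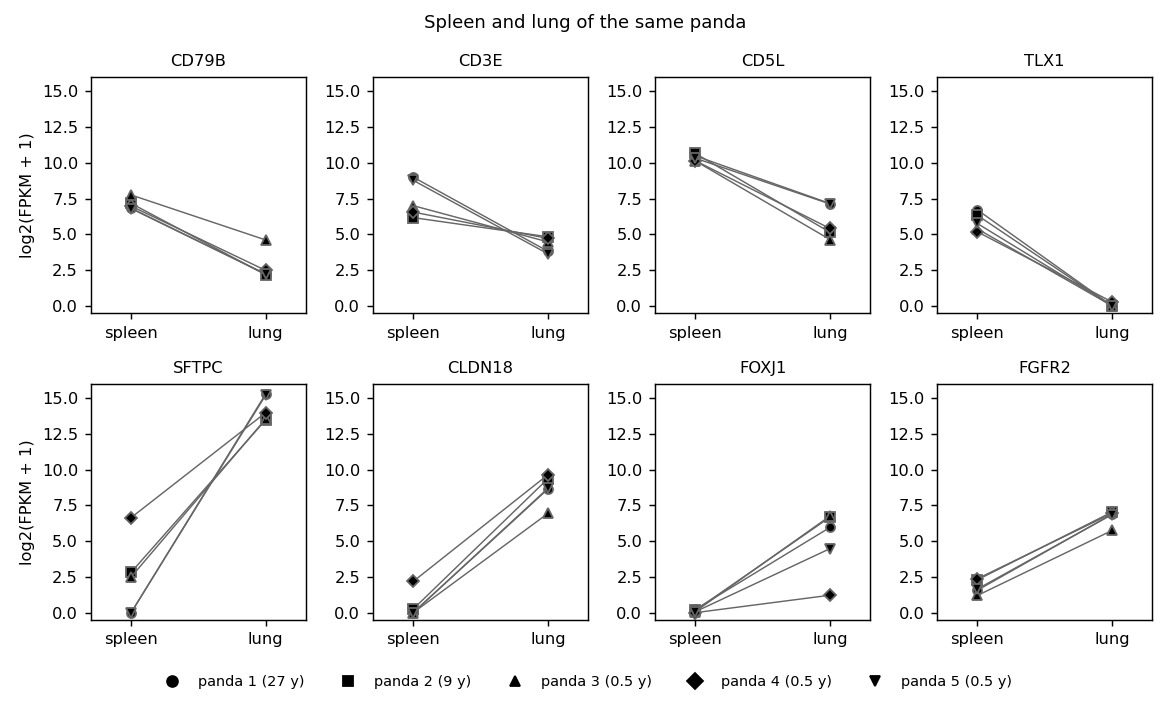
Paired values, log2(FPKM + 1), in the spleen and lung of each panda for 4 genes higher in the spleen (CD79B, CD3E, CD5L, TLX1) and 4 higher in the lung (SFTPC, CLDN18, FOXJ1, FGFR2). Each line is 1 panda. All lines of a gene slope the same way, the CD3E lines of pandas 1 and 5 are the steepest of that gene, and panda 4 has the flattest lines for SFTPC and FOXJ1.

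Genes of lung mesenchyme and vessels were mostly higher in the lung. Of 18 measured, 17 of them listed by the study for the lung, 11 were called higher in the lung and 2 in the spleen. The median was -2.26. FOXF1, a forkhead factor of lung mesenchyme and capillaries, had 119, 252, 87.0, 275, and 58.8 FPKM in the lungs and 2.15, 1.57, 0.556, 2.55, and 0.955 in the spleens. TBX4, which patterns the lung bud mesenchyme, was at 23.4 ± 12.3 FPKM with 4 reads in all spleens. SLC6A4, the serotonin transporter, was at 42.8 ± 18.8 FPKM and 1.79 ± 1.42 FPKM. The 2 genes higher in the spleen were CD300LG, a receptor of vessel walls on which lymphocytes roll, with 14.6, 14.9, 16.8, 11.3, and 11.4 FPKM against at most 0.202, and TM4SF18, a membrane protein of endothelium, at 15.0 ± 4.44 FPKM and 0.443 ± 0.188 FPKM.

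Genes of simple epithelium were called higher in the lung for 10 of 11 measured and in the spleen for 0, with a median of -3.88. The mesothelial genes of the same list, UPK3B, MSLN, and WT1, carried no name in the study's list, so their values could not be looked up. KRT8 and KRT18, the keratin pair of simple epithelia, had 542, 101, 81.2, 103, and 348 and 272, 79.6, 58.9, 94.7, and 278 FPKM in the lungs and 8.39, 12.2, 4.83, 25.3, and 10.6 and 7.71, 3.32, 3.67, 6.80, and 7.66 in the spleens. EPCAM, the epithelial adhesion molecule, was at 129 ± 20.4 FPKM and 7.71 ± 4.03 FPKM, and LAD1, of the anchoring filaments, at 23.5 ± 11.2 FPKM and 0.140 ± 0.131 FPKM. CDH1 (E-cadherin) was the member not called, at -1.20. The study had listed 9 of the 11 under the spleen, where its list also holds genes that are lower there.

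Signalling genes of the WNT, FGF, and R-spondin families, listed together with GDNF and GFRA3 from outside these families, split between the tissues. Of 14 measured, 3 were called higher in the spleen (DKK2, WNT5A, RSPO4) and 4 in the lung (FGFR2, GFRA3, FGF10, NKD2), and RSPO4 lost its call without pandas 1 and 5 (1.95). A pseudocount of 0.1 or limma-voom called 7 higher in the lung. The median of the list was -0.47 (-1.25 at a pseudocount of 0.1 and -1.59 with limma-voom on the recovered reads), and it changed sign without pandas 1 and 5 (0.091), after quantile normalization (0.093) and with the stricter filter (0.31). FGFR2, an FGF receptor of epithelium, had 118, 131, 52.8, 123, and 115 FPKM in the lungs and 1.96, 3.91, 1.299, 4.17, and 2.15 in the spleens. FGF10, its mesenchymal ligand in lung branching, had 15.3, 18.9, 15.0, 16.7, and 14.4 and 0.189, 0.868, 0.764, 0.429, and 0.447 FPKM. GFRA3, a co-receptor of the nerve growth ligand artemin, was at 119 ± 51.9 FPKM and 3.74 ± 1.39 FPKM. RSPO4, which enhances WNT signals, was at 3.49 ± 1.10 FPKM in the spleen with 1 read in all lungs.

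Of 6 aquaporins and proton pump subunits tested, 4 of them listed by the study for the lung, 4 were called higher in the lung and 0 in the spleen. AQP1, the water channel of capillaries, had 392, 126, 87.5, 141, and 360.3 FPKM in the lungs and 27.9, 18.3, 22.8, 18.7, and 28.05 in the spleens, AQP4 was at 20.3 ± 9.09 FPKM with 2 reads in all spleens, AQP8 at 8.05 ± 3.88 FPKM and 0.390 ± 0.304 FPKM, and the proton pump subunit ATP6V0D2 at 6.93 ± 5.10 FPKM and 0.377 ± 0.277 FPKM, whose call was lost without panda 5 (-1.88) and without pandas 1 and 5 (-1.54). For 6 phospholipases A2 and related enzymes tested, the study had listed 5 for the lung and 1 for the spleen. Of these 6, 4 were called higher in the lung and PLA2G2D in the spleen. PLA2G4D, PLA2G2E, and PLA2G3, which release fatty acids from phospholipids, were at 8.63 ± 3.56 FPKM, 7.64 ± 7.11 FPKM, and 5.91 ± 3.63 FPKM in the lung and below 1 FPKM in each spleen, and PLA2G2E lost its call without pandas 1 and 5 (-1.77). Of the 3 measured NADPH oxidases and nitric oxide synthases, NOS2, the inducible synthase of macrophages, was called higher in the spleen, with 44.4, 35.5, 26.4, 29.8, and 38.1 FPKM against 13.04, 3.13, 4.75, 4.08, and 11.4. The superoxide source NOX1 (4.54 ± 2.22 FPKM in the spleen, 0.622 ± 0.465 FPKM in the lung) and the hydrogen peroxide source NOX4 (0.0307 ± 0.0528 FPKM and 1.23 ± 0.856 FPKM) missed the threshold, and both passed it at a pseudocount of 0.1 and with limma-voom.

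Several genes of plasma proteins were called outside the lists or among the liver markers, and those named here were picked after their values were seen. They went both ways, since CP above was higher in the spleen while the following were higher in the lung. C5, the complement component from which the terminal pathway starts, had 83.7, 26.4, 41.3, 32.4, and 126 FPKM in the lungs and 0, 0.118, 0.219, 0.446, and 0.114 in the spleens, a difference of -5.50 ± 0.36 (adjusted p = 1.7e-05). C4BPA, a chain of C4b-binding protein, was at 84.2 ± 31.0 FPKM in the lung and 1.73 ± 1.61 FPKM in the spleen, LOC100474871, described as alpha-1-acid glycoprotein, at 356 ± 151 FPKM and 3.83 ± 1.91 FPKM, and LOC100482523, described as haptoglobin (a family with near-identical copies), at 1609 ± 485 FPKM and 65.6 ± 33.6 FPKM. For each of these 4 the mean was highest in the liver among all 5 tissues. Of the liver list 6 of 12 genes passed the filter, 2 were called higher in the lung and 0 in the spleen. APOA1, the main protein of high density lipoprotein, had 3947, 3566, 3276, 4115, and 4899.8 FPKM in the lungs and 873, 279, 496, 286, and 1128 in the spleens, and APOC3 had 16.3, 1.004, 5.28, 2.49, and 18.8 and 0, 0, 1.21, 0.874, and 0. The 12 liver genes summed to between 299.7 and 1150.3 FPKM in the spleens and between 3315 and 4940.0 in the lungs, and whether plasma or liver RNA had a part was not tested. APOC3 lost its call without panda 1 (-1.93) or panda 5 (-1.88), and stood at -1.13 without both. The tested liver genes HPX and F2 were at 1.57 ± 0.991 FPKM and 2.52 ± 1.27 FPKM in the lung, and FGA, FGB, FGG, AHSG, SERPINC1, and AMBP had means at or below 1 FPKM in both tissues.

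A pair of genes known from platelets, CLEC1B and ITGB3, was also picked after its values were seen, and no list of platelet genes was tested. CLEC1B (CLEC-2), the platelet receptor for podoplanin, had 1134, 650.1, 725, 806, and 1657 FPKM in the spleens and 34.4, 34.2, 36.7, 45.3, and 45.9 in the lungs, a difference of 4.55 ± 0.19 (adjusted p = 2.3e-06). ITGB3, a chain of the fibrinogen receptor of platelets, had 105, 234, 125, 213, and 99.5 and 5.01, 5.75, 7.32, 4.32, and 4.63 FPKM.

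The named markers of heart, kidney, pancreas, and red cells were low in both tissues. Names covered all 10 heart and all 10 kidney genes, but only 3 of 11 pancreas and 3 of 9 red cell genes. The other pancreas and red cell markers carried no name in the study's list and could not be looked up, so the content of these cells was not judged. None of 7 tested genes of heart and striated muscle was called, and their summed level, with 3 untested members, lay between 11.2 and 62.9 FPKM in the spleens and between 10.99 and 57.9 in the lungs. The log2 differences were -1.36 for TNNT2, 1.13 for CKM, -0.32 for MB, and -0.27 for TNNC1, and at a pseudocount of 0.1 TNNT2 was called higher in the lung. Of 10 kidney genes only FXYD2 passed the filter, at 1.69 ± 1.33 FPKM in the spleen and 2.33 ± 1.01 FPKM in the lung, and 1 gene of this list was at 0 in each spleen and 1 in each lung. The list summed to at most 4.48 FPKM in a spleen and 5.52 in a lung. Of 3 named pancreas genes, CLPS (colipase) passed the filter and was not called (1.46), although it was called higher in the spleen at a pseudocount of 0.1 and with limma-voom, and their sum was at most 4.73 FPKM in a spleen and 1.03 in a lung. Of the thyroid genes, TSHR and SLC26A4 were at 1.47 ± 0.919 FPKM and 1.97 ± 0.722 FPKM in the lung and were not called, although limma-voom called TSHR. The 3 named red cell genes did not pass the filter, and their sum was at most 1.29 FPKM in a spleen and 0.788 in a lung.

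The study listed 24 named genes under both the spleen and the lung. LOC100472452 stayed below the filter. The other 23 were tested, 11 were called higher in the spleen, 3 in the lung, and 9 were not called. IGHM, JCHAIN, CD79A, CD3E, and POU2AF1 were among the 11, together with PLAC8, a small protein of leukocytes (781 ± 365 FPKM in the spleen, 109 ± 56.3 FPKM in the lung), CLDN11, a tight junction protein (115 ± 52.8 FPKM and 16.8 ± 8.09 FPKM), C15orf59 (22.1 ± 8.06 FPKM and 0.116 ± 0.0767 FPKM), and LOC100471652, described as a CD1a antigen-presenting molecule (7.94 ± 2.90 FPKM and 0.972 ± 0.665 FPKM). NPY1R and NPY5R, receptors of neuropeptide Y, completed them. NPY1R had 112, 123, 272, 159, and 125 FPKM in the spleens and 26.0, 7.61, 20.4, 8.94, and 63.6 in the lungs, and NPY5R had 14.0, 12.5, 59.0, 19.2, and 19.7 and 2.77, 0.337, 1.89, 0.996, and 6.36, so panda 3 was highest in the spleen and panda 5 in the lung for both. The 3 higher in the lung were LAMP3, the receptor tyrosine kinase ROS1 (20.2 ± 6.43 FPKM against 2.53 ± 0.736 FPKM), and CUNH4orf19 (14.3 ± 6.76 FPKM against 1.93 ± 1.07 FPKM). Of the 9 not called, 6 leaned to the spleen (MILR1 at 1.99, P2RX1 at 1.73, SLC38A3 at 1.69, FAM184A at 1.47, SLC25A34 at 0.98, CDH2 at 0.93) and 3 to the lung (CYP4B1 at -1.89, DDAH1 at -1.72, ADAM28 at -1.58). All 9 passed the threshold with limma-voom on the recovered reads and at a pseudocount of 0.1.

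Some of the called genes sit side by side in the genome. In the gene order of the RefSeq assembly ASM200744v3, used for order only, 386 of the 435 called named genes were found by symbol, and 14 pairs of them were direct neighbours among protein-coding genes. In 13 of the 14 pairs both genes went the same way. One such pair was CD79B and GH1, the pituitary growth hormone gene. GH1 had 6.17, 11.3, 14.5, 10.6, and 9.89 FPKM in the spleens and 0.0947, 0, 1.12, 0, and 0.0972 in the lungs, and like CD79B it was highest in spleen 3 and lung 3. Another was LMAN1L and CPLX3, a complexin of synaptic vesicle release, with 55.8, 24.6, 40.7, 15.97, and 28.9 FPKM for CPLX3 in the spleens, in the same order of the 5 spleens as for LMAN1L, and 1 read in all lungs. CD3E, CD3D, and CD3G, KRT8 and KRT18, KLRD1 and KLRK1, NPY5R and NPY1R, and APOC3 and APOA1 were further pairs. The pair that split was FAM216B (-2.96) of cilia and the cytokine TNFSF11 (3.03). HTSeq ran with its default settings, which count by strand, and whether the libraries kept strand was not stated, so whether reads that run from one gene into the next add to these values was not tested.

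To ask whether the separation differed between the 3 young and the 2 older pandas, the 5 within-panda differences were compared with limma. Of 16908 genes 0 (0.00%) had an adjusted p below 0.05, and 122 (0.722%) had an unadjusted p below 0.05. With 3 pandas against 2, this does not show that the difference was alike. The named genes with the largest change were CCL13, FOXJ1, and SFTPC. The difference of CCL13, spleen minus lung, was -4.14, -4.05, 0.40, -3.20, and -2.10 in pandas 1 to 5, 2.46 higher in the young ones (unadjusted p = 0.0348, limma adjusted p = 0.999975). Those of FOXJ1 (-5.74, -6.52, -6.68, -1.22, and -4.42) and SFTPC (-15.32, -10.68, -11.07, -7.35, and -15.23) ranged widely among the young pandas alone, with unadjusted p-values from limma of 0.189 and 0.454 (adjusted p = 0.999975 for both).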

How the data were processed

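RNA of spleen and lung of 5 pandas was sequenced in paired ends on an Illumina instrument from NEBNext Ultra libraries, whose strand setting was not stated. The authors aligned clean reads to the ailMel1 genome with HISAT2, assembled transcripts of all libraries together with Cufflinks and Cuffcompare, took gene counts from HTSeq (union setting, otherwise default, which counts by strand), and deposited FPKM for each gene and library without coordinates or names. A difference in the length model of a gene scales its FPKM alike in both tissues. The number of a library marks its panda, and deviations from the tissue means correlated between spleen and lung of the same panda at r from 0.322 to 0.459 across genes, against -0.473 to 0.360 between different pandas, so the panda was kept as a block.

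Genes with a mean above 1 FPKM in either tissue were tested on log2(FPKM + 1) with limma version 3.58.1 with trend, in R version 4.3.3, and the calls needed a log2 difference beyond 2 and a Benjamini-Hochberg p under 0.05. The script was tested on simulated data. Whole reads, within 0.05 reads, could be recovered for 24205 of 25376 genes and were given to limma-voom, which called 2598 genes. Floors are 3 reads per library and cover counting error only. Libraries of 1 tissue are separate animals.

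Named were the 12 called genes of each direction with the largest difference and no overlap, genes that the study names for either organ, the 4 members of each of 24 gene lists with the largest difference, called members against their list, genes listed under both organs, and 3 genes for young against older pandas. A gene of the study's text without an identifier in the names used, NKX2-4, was not analysed here. Some genes that the rule names are not reported here. Members and lists were chosen with earlier results of these data known. Names were read from page images, so a few may be misspelt. HAND2, C5, CLEC1B, and other genes described beyond the rule were picked after their values were seen. Alternatives were other normalizations, filters, pseudocounts, fits without the panda block, all 25 libraries, and leaving out each panda. Leaving out pandas 1 and 5 together was added after seeing the data.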

Additional observations from a re-analysis of the deposited data

Results flagged for a closer look

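In 32 of 225 groups of 5 libraries, formed by each reported gene within a tissue where at least 1 library reached 1 FPKM, the highest or lowest library stood far from the other 4 by Dixon's criterion. For normal and independent values it would flag about 1 in 20 groups, here 11. FPKM values are skewed and the groups share the same libraries, so 11 is a nominal number and no valid expectation for 32. Lung 3 and spleen 4 account for most of them.

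In lung 3 the B cell genes CD79A (32.4 FPKM), CD79B (23.4 FPKM), CR2 (5.71 FPKM), MS4A1 (7.73 FPKM), and PAX5 (3.77 FPKM) stood above the other lungs. So did GH1 beside CD79B (1.12 FPKM), the lymphocyte receptors CCR6 (2.76 FPKM) and GPR174 (2.71 FPKM), KLRD1 of NK cells (113 FPKM), F2 (prothrombin, 4.74 FPKM), NOX4 (2.73 FPKM), and SNTN of cilia (52.0 FPKM). CCK (1.04 FPKM) and FGFR2 (52.8 FPKM) stood below the other lungs there.

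In spleen 4 the lung genes SFTPC (99.3 FPKM), SFTPB (19.3 FPKM), LOC100482856 (20.9 FPKM), SFTPD (2.35 FPKM), SLC34A2 (2.80 FPKM), SLC22A31 (2.33 FPKM), NKX2-1 (1.06 FPKM), CLDN18 (3.54 FPKM), CXCL17 (15.6 FPKM), and UPK1B (6.94 FPKM) stood above the other spleens.

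In spleen 3, CDH2 (2.38 FPKM), LOC100465091 (10.3 FPKM), NPY5R (59.0 FPKM), and P2RX1 (19.1 FPKM) stood above the other spleens. IL21R was high in spleen 1 (25.7 FPKM), AGER was low in spleen 5 (13.3 FPKM), SPIC was high in lung 5 (1.79 FPKM), and EPCAM was low in lung 1 (93.5 FPKM).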

How the results depend on the processing

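The count of called genes moved by over 1.5 times under 2 of the alternatives. A pseudocount of 0.1 called 2418 genes (991 higher in the spleen, 1427 in the lung) and 304 and 378 of the named ones, and limma-voom on recovered reads called 2598 (1054 and 1544) and 319 and 388 of the named ones. Both shrink the differences of low genes less by construction, and 1175 and 1172 of the 1175 genes were called in them. Without the panda as a block 1163 genes were called, 1162 of them shared with the blocked fit, while 4883 in place of 6874 passed the adjusted p alone. Among all named genes 1 call was gained (UPK1B) and 1 lost. TMM factors, quantile normalization, no filter, the stricter filter, and all 25 libraries in one fit called between 1116 and 1177 genes. Leaving out 1 panda gave between 1116 and 1266 called genes (451 to 516 higher in the spleen, 654 to 750 in the lung), with 174 to 208 and 221 to 259 of the named ones. The median of the WNT, FGF, and R-spondin list turned to 0.093 after quantile normalization, to 0.31 with the stricter filter, and to 0.091 without pandas 1 and 5, and the cause was not tested. Of 23 list medians, 19 moved by more than 25% at a pseudocount of 0.1 and 20 with limma-voom, none of them changing sign. Leaving out pandas 1 and 5 together, chosen after seeing the data, called 1102 genes, 924 of them shared, and 97 named genes lost their call, while TNNC1, not called, turned to 0.19. For young against older pandas each alternative run gave 0 genes at an adjusted p below 0.05 with limma, with 59 to 429 at an unadjusted p below 0.05. EOMES lost its call without panda 1 (1.96), and PLA2G2D without panda 1 (1.99), 3 (1.67), or 5 (1.92). With 5 pandas, 1 library per tissue each, and values near 1 FPKM, fold changes of low genes are understated by the pseudocount. FPKM of genes at 0 in a tissue give lower bounds only.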
